A study of Sus scrofa with 21 samples.

Results

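Of 21 piglets whose distal small intestine was sequenced, 3 had far less message for APOB than the rest, the structural apolipoprotein on which the enterocyte builds chylomicrons. They were picked by that gene alone: expected counts were summed per gene, scaled to CPM (counts per 1000000 of the file's total), and a sample with APOB below 200 CPM was taken as APOB-low. The 3 samples were control 5 (41.8 CPM), control 8 (23.1 CPM) and starch 3 (3.68 CPM), and the other 18 ran from 1012 to 12466 CPM with a median of 5173 CPM. Control 5 was the sample just inside the threshold and starch 4, at 1012 CPM, the one just outside it. Because a measured gene chose the samples, every gene of the same contrast is described by values, ranges and counts, and no test of the 3 against the 18 is given.

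The animals were Danish Landrace/Yorkshire piglets, followed from birth and sampled when euthanised at 24 to 25 days of age. Control piglets (n = 10) were given a milk replacer (DI-9224), and starch piglets (n = 11) that product with wheat added. Of the control piglets 2 were APOB-low and 8 were not, and of the starch piglets 1 was APOB-low and 10 were not. A two-sided Fisher's exact test of these shares gave p = 0.586, but with 3 APOB-low samples the smallest p it allows is 0.0902, so it could not have passed 0.05 whatever the split. Diet is the only grouping the labels give, and no litter, sex or collection day was used here.

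The distal small intestine takes up bile acids, vitamin B12 and what remains of fat, sugar, peptides and amino acids, and most of that work is done by mature enterocytes on the villus. Below them, the crypt holds stem and dividing cells, goblet cells secrete mucus, and the wall beneath holds macrophages and lymphocytes, fibroblasts, vessels, nerves and smooth muscle. RNA of a whole tissue piece mixes all of these, so fewer cells of a type and less RNA per cell cannot be told apart in any value below.

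The 3 samples had 8034711 to 8154681 expected counts, within the 6719264 to 8610458 of the others, and listed 16004 to 16180 genes against 15702 to 16335. Mitochondrially encoded messages took 13.2 to 16.2% of counts in the 3 and 13.2 to 26.4% in the 18. The 20 most abundant genes took 19.4 to 23.3% and 19.8 to 32.4%. The ranges of the 3 and the 18 overlapped on each of these measures, and the part of depth or mitochondrial content in the differences below was not tested.

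In all that follows, values of the 3 samples are given in the order control 5, control 8, starch 3, and those of the other 18 as lowest, median and highest. The log2 difference is the mean of log2(CPM + 0.5) over the 3 minus that over the 18, followed by the SD over the 3 and the SD over the 18, and for genes near 0 it understates the ratio. A gene is called lower, or higher, in the APOB-low samples where all 3 lay below, or above, every one of the 18. A listed gene that did not pass the filter either had a mean under 1 CPM or matched no single gene of the files by symbol. In the lists of peptidases (13 listed, 10 matched), cell cycle (21 and 16) and antimicrobial genes (15 and 9) every matched gene passed.

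The other marker genes were named together with this split, with these data known, so their separation describes the 3 samples and adds no support. In the files' Ensembl identifiers the 6 markers are ENSSSCG00000008595 (APOB), ENSSSCG00000009179 (MTTP), ENSSSCG00000017037 (FABP6), ENSSSCG00000033146 (CD163), ENSSSCG00000014987 (MMP12) and ENSSSCG00000040947 (REG4). MTTP, the transfer protein that loads lipid onto APOB, was at 6.08 CPM in control 5, 2.99 in control 8 and 0.858 in starch 3, against 251, 678 and 1012 CPM in the others, a log2 difference of -7.41 (SD 1.15 and 0.71). FABP6, the bile acid binding protein of ileal enterocytes, was at 18.6, 39.1 and 0.368 CPM against 255, 1467 and 5798 CPM, a difference of -7.37 (SD 2.93 and 1.39), and starch 3 was far below both controls. The remaining markers, known from other cells, stood the opposite way. CD163, the haemoglobin scavenger receptor of resident macrophages, was at 903, 789.7 and 1087 CPM against 9.29, 32.6 and 222 CPM, a difference of 4.69 (SD 0.23 and 1.14). MMP12, the elastase of macrophages, was at 257, 387 and 183 CPM against 0.284, 1.62 and 28.1 CPM, a difference of 6.7 (SD 0.54 and 1.49). REG4, a lectin secreted by goblet and endocrine-lineage cells, was at 1164, 1887 and 519 CPM against 35.00, 61.2 and 165 CPM, a difference of 3.96 (SD 0.94 and 0.59). For none of the 5 did the ranges of the 3 and the 18 touch, and starch 4 was the highest of the 18 in CD163 and MMP12 but not in REG4, where it was at 90.5 CPM.

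**Figure D1:**
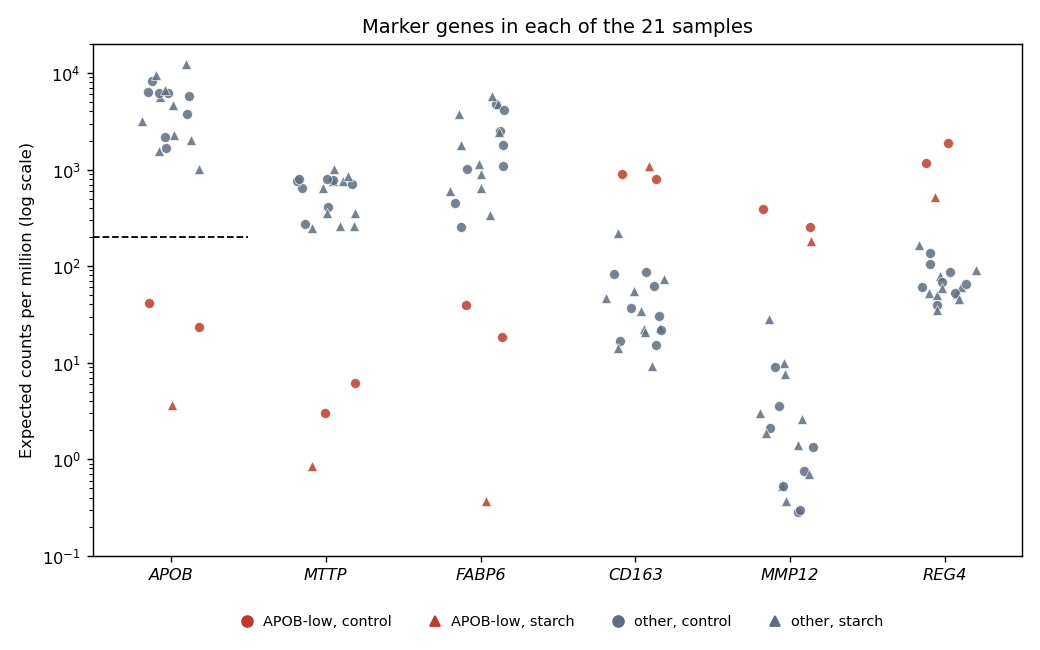
Expected counts scaled to the file total (CPM), on a log scale, of the 6 marker genes in each of the 21 samples, with the 3 APOB-low samples in red, control piglets as circles, starch piglets as triangles and the 200 CPM threshold as a dashed line for APOB. MTTP and FABP6 of the 3 lie under, and CD163, MMP12 and REG4 above, every other sample.

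Across the transcriptome 13642 genes had a mean of at least 1 CPM over the 21 samples. Of these, 802 (5.88%) were lower in the 3 APOB-low samples and 1281 (9.39%) were higher, so that 15.3% of genes had no overlap. The filter's mean takes in the 3, so a gene nearly absent from the 18 could pass through the 3 alone and add to the higher count. With a log2 difference of at least 1 in addition, 655 (4.8%) were lower and 753 (5.52%) higher. The 802 lower genes together took 2.22 to 2.32% of all counts in the 3 samples and 7.46 to 18.02% in the others, and the 1281 higher genes took 15.7 to 17.3% and 5.52 to 9.74%. The median log2 difference over all genes was 0.15 (quartiles -0.29 and 0.56) with scaling by the file's total, and TMM scaling, which centres the bulk of genes, brought it to 0.01. With TMM scaling 1108 genes (8.12%) were lower and 723 (5.3%) higher, so the lower genes were 60.5% of those without overlap in place of 38.5%. Every list count below stands beside the share of all genes under its own scaling. That share is 5.88% lower and 9.39% higher by the total, and 8.12% and 5.3% with TMM. Of the 802 lower genes 750 were also lower under TMM, and of the 1281 higher genes 633 were also higher, so modest higher values below depend on the scaling and both counts are given where they differ.

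**Figure D2:**
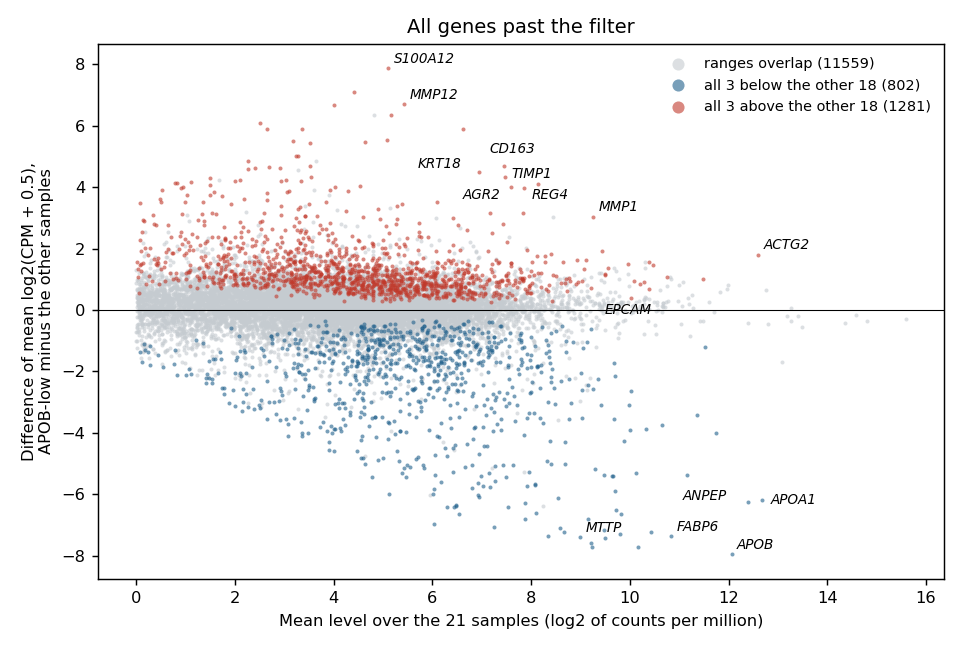
Each point is 1 of 13642 genes, with its mean level over the 21 samples (log2 of CPM) against its log2 difference, APOB-low minus the others; blue points are the 802 lower and red the 1281 higher genes. The lower genes reach -7.97 (APOB, which chose the samples) and include abundant ones such as APOA1 and ANPEP, and EPCAM lies near 0.

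Principal components of the 500 most variable genes placed the 3 samples together. They scored 68.3 to 76.8 on the first component, which held 62.6% of the variance, and the others scored -24.5 to 21.8. The highest of the others was starch 4. On the second component, 8.9% of the variance, the 3 lay at -1.1 to 5.0, inside the -33.8 to 13.1 of the others. Across all genes past the filter, which are not independent replicates, log2 levels of the 3 samples correlated with one another at r of 0.937 to 0.971 (3 pairs). The 3 correlated with the others at 0.757 to 0.919 (54 pairs, median 0.838), and the others among themselves at 0.847 to 0.976 (153 pairs, median 0.945). The components hold the genes that separate the samples, so these are descriptions of how alike the 3 were.

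**Figure D3:**
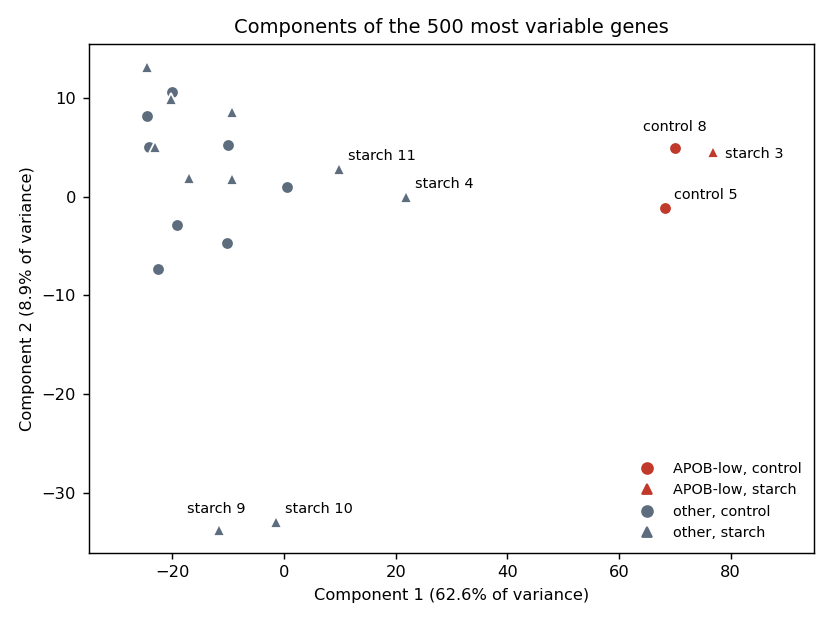
First against second principal component of log2(CPM + 0.5) for the 500 most variable genes in the 21 samples, APOB-low in red. The 3 APOB-low samples, from both diets, lie at 68.3 to 76.8 on the first axis, starch 4 is the nearest of the others at 21.8, and starch 9 and starch 10 stand apart on the second axis only.

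Genes of fat absorption were the first group beyond the markers. Of 22 genes listed for uptake of fat and assembly of chylomicrons, 16 passed the filter, 9 were lower, 0 higher and 7 overlapped, with a median log2 difference of -1.63. APOA4, an apolipoprotein of the chylomicron surface, was at 20.5, 1.41 and 0.741 CPM against 214, 614 and 4060 CPM, a difference of -7.42 (SD 2.20 and 1.04). APOA1, the main apolipoprotein of high-density lipoprotein, was at 133, 99.7 and 52.98 CPM against 988, 7612 and 14397 CPM, a difference of -6.19 (SD 0.67 and 0.94). APOC3, which slows lipase action on chylomicrons, was at 1.12, 0.124 and 0 CPM against 14.7, 69.8 and 239 CPM. All 3 apolipoproteins were lowest in starch 3. FABP2, which carries fatty acids inside the enterocyte, was at 9.68, 14.6 and 2.82 CPM against 124, 985 and 3918 CPM, a difference of -6.65 (SD 1.13 and 1.15). NPC1L1, the cholesterol importer of the brush border, was at 13.2, 15.4 and 22.1 CPM against 101, 177 and 239.9 CPM, and DGAT1, which makes triglyceride from absorbed fatty acids, at 44.1, 52.4 and 62.5 CPM against 174, 324 and 528 CPM. Not every fat gene was low: DGAT2, another triglyceride synthase, was at 45.9, 56.4 and 33.3 CPM against 2.56, 11.3 and 55.9 CPM, a difference of 2.10 (SD 0.38 and 1.11) with overlapping ranges. PLIN2, the coat protein of lipid droplets, read 174, 203 and 135 CPM against 55.7, 99.2 and 140.3 CPM, and APOBEC1, the enzyme that edits APOB message, 37.4, 15.2 and 32.01 CPM against 2.63, 7.72 and 33.5 CPM. Both overlapped on the upper side.

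Every one of the 10 brush-border peptidases that passed the filter, of 13 listed, was lower, with a median log2 difference of -5.56. MEP1B, the beta subunit of meprin, had the largest negative difference of the genes named here after APOB: it was at 13.2 CPM in control 5, 10.8 in control 8 and 0.491 in starch 3, against 129, 1298 and 2384 CPM in the others, a difference of -7.72 (SD 2.11 and 1.02). ANPEP, aminopeptidase N, was at 82.9, 49.04 and 107 CPM against 3352, 5646 and 12470 CPM, a difference of -6.26 (SD 0.57 and 0.54). ENPEP, glutamyl aminopeptidase, was at 40.6, 24.1 and 28.7 CPM against 633, 1367 and 2092 CPM. NAALADL1, an aminopeptidase-related membrane protein of the ileum, was at 12.4, 10.5 and 6.01 CPM against 353, 908 and 1754 CPM. The smallest gap of the group was that of DPP4, dipeptidyl peptidase 4, at 106, 64.5 and 81.1 CPM against 184, 277 and 477 CPM, a difference of -1.86 (SD 0.35 and 0.42).

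Carriers for the products of those enzymes were low as well. Of 13 genes listed for amino acid and peptide transport 12 passed the filter, 8 were lower (7 with TMM scaling) and 0 higher, with a median of -2.62. SLC6A19, the neutral amino acid carrier of the brush border, was at 4.10, 3.24 and 0.858 CPM against 59.2, 354 and 510.4 CPM, a difference of -6.61 (SD 0.94 and 0.85). SLC15A1, the peptide carrier, was at 4.22, 2.49 and 1.35 CPM against 39.3, 103 and 211 CPM, and SLC7A9, the light chain of the cystine carrier, at 1.74, 2.74 and 2.21 CPM against 51.4, 174 and 279 CPM. SLC3A2, a heavy chain used by carriers in most cells, overlapped, at 98.1, 108 and 88.3 CPM against 63.2, 172 and 336 CPM. SLC28A1, a nucleoside carrier outside the list, was among the 15 largest differences, at 0.497, 0.622 and 0.368 CPM against 25.1, 103 and 198 CPM.

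For starch and sugar, 13 of 13 listed genes passed the filter, 10 were lower (11 with TMM scaling) and 0 higher, with a median of -3.51. SI, sucrase-isomaltase, was at 15.9, 21.5 and 17.8 CPM against 270.4, 924 and 2211 CPM, a difference of -5.42 (SD 0.22 and 0.84). MGAM, maltase-glucoamylase, was at 14.4, 7.72 and 5.89 CPM against 26.4, 143 and 848 CPM, a smaller gap in a gene that varied more among the 18. SLC5A1, the sodium-coupled glucose carrier, was at 45.1, 20.9 and 17.9 CPM against 87.3, 288 and 816 CPM, and SLC2A2, the basolateral glucose carrier, at 2.61, 0.996 and 0.981 CPM against 7.71, 26.6 and 66.5 CPM. Inside the cell, G6PC1, which frees glucose from its phosphate, was at 0.497, 0.747 and 0 CPM against 1.13, 52.8 and 155 CPM, with starch 4 the lowest of the 18. The fructose carrier SLC2A5 differed from its neighbours in the pathway: at 84.4, 35.3 and 77.4 CPM against 12.4, 22.1 and 59.6 CPM it overlapped on the upper side.

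Bile acid genes, the speciality of this gut segment, were among the most separated. Of 11 listed 10 passed, 8 were lower and 1 higher, with a median of -4.29. NR1H4, the nuclear bile acid receptor FXR, was at 1.37, 0.871 and 1.72 CPM against 38.3, 76.5 and 125 CPM, a difference of -5.38 (SD 0.35 and 0.46). SLC51A and SLC51B, both subunits of the basolateral bile acid exporter, were at 0.993, 2.99 and 4.17 CPM against 29.3, 66.5 and 242 CPM and at 4.59, 13.6 and 13.6 CPM against 50.6, 137 and 250.0 CPM. FGF19, the hormone through which the ileum slows bile acid synthesis in the liver, was at 0, 0.124 and 0 CPM against 0.754, 9.91 and 39.9 CPM, and NR0B2, a repressor induced by FXR, at 0.497, 0 and 0 CPM against 2.51, 16.3 and 42.7 CPM. The apical bile acid importer SLC10A2 overlapped, at 0.497, 0.871 and 0.981 CPM against 0.263, 3.60 and 33.8 CPM and was low in many of the 18 as well. ABCC3, an export pump of the basolateral membrane, was the 1 higher gene, at 186, 110.2 and 124 CPM against 18.03, 34.5 and 72.4 CPM, a difference of 1.96 (SD 0.40 and 0.57). Of the ileal genes that mark the labelled segment, FABP6 was under 1 CPM in 1 of the 3, starch 3, and in 0 of the 18. FGF19 was under 1 CPM in all 3 and in 1 of the 18, and SLC10A2 in all 3 and in 4 of the 18.

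**Figure D4:**
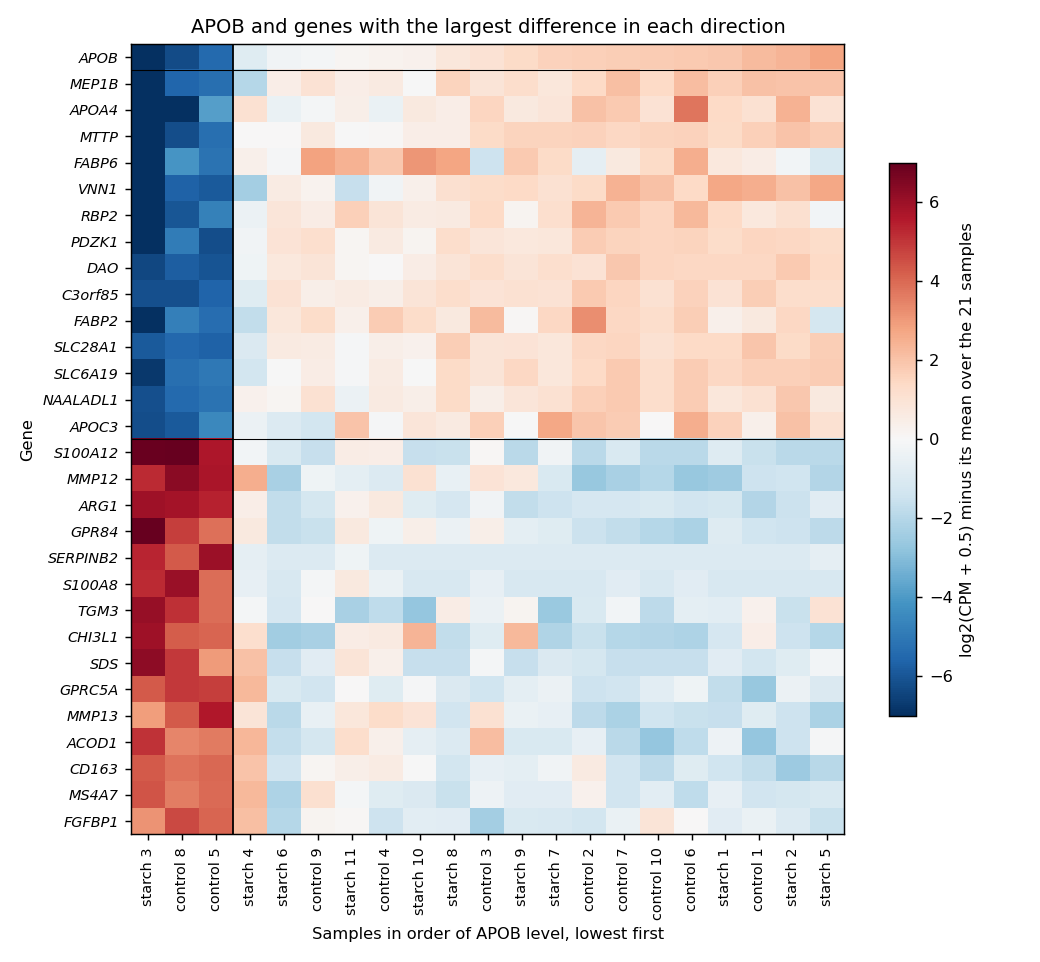
Heat map of log2(CPM + 0.5), centred on each gene's mean over the 21 samples, for APOB, 14 of the 15 genes with the largest lower difference and the 15 with the largest higher difference, with samples ordered from the lowest APOB level on the left. The 3 leftmost columns are the APOB-low samples, and starch 4, the fourth column, was the lowest of the others in 9 of the 14 lower genes and the highest in 7 of the 15 higher ones.

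The brush border that carries these proteins was low in message with them. Of 14 genes listed for microvillus structure 13 passed, 10 were lower (11 with TMM scaling) and 0 higher, with a median of -2.56. VIL1, the actin bundler villin, was at 202, 175 and 181 CPM against 835, 1168 and 1588 CPM, a difference of -2.64 (SD 0.11 and 0.28). ESPN, espin, another bundler, was at 0.993, 1.62 and 1.59 CPM against 26.6, 54.5 and 115 CPM, and CDHR5, a cadherin that links neighbouring microvilli, at 69.3, 122 and 99.2 CPM against 682, 1434 and 2346 CPM. EZR, ezrin, which ties membrane to actin in most epithelia, overlapped at 637, 372 and 429.9 CPM against 314, 516 and 748 CPM. PDZK1, a scaffold for brush-border carriers outside the list, was at 4.59, 12.3 and 1.96 CPM against 318, 881 and 1309 CPM, a difference of -7.16 (SD 1.19 and 0.56).

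Endocytosis of protein and vitamin B12 showed a split. Of 11 genes listed 11 passed, 4 were lower (3 with TMM scaling) and 0 higher, with a median of -1.03 (-0.67 within the starch samples). CUBN, cubilin, the receptor for vitamin B12 bound to intrinsic factor, was at 6.08, 7.72 and 1.59 CPM against 25.7, 396 and 824 CPM, and AMN, amnionless, its membrane partner, at 0.497, 1.24 and 0 CPM against 9.17, 90.8 and 252 CPM. Among 14 genes for iron, calcium and vitamin A 12 passed, 5 were lower (6 with TMM scaling) and 0 higher. RBP2, the retinol carrier of the enterocyte, was at 7.32, 2.74 and 0.368 CPM against 151, 412 and 1078 CPM, a difference of -7.22 (SD 1.60 and 0.77). S100G, the calcium-binding calbindin of the gut, was at 21.8, 6.10 and 8.46 CPM against 137, 324 and 1478 CPM, and SLC40A1, the iron exporter ferroportin, at 18.99, 8.34 and 10.5 CPM against 22.9, 137 and 673 CPM. SLC11A2, the iron importer, overlapped at 56.6, 23.6 and 35.3 CPM against 20.4, 30.9 and 55.2 CPM. Low absorptive genes thus described these samples for some lists (10 of 10 peptidases and 10 of 13 genes of starch and sugar lower) better than for others (9 of 16 fat, 5 of 12 micronutrient and 4 of 11 endocytosis genes). DGAT2, PLIN2, SLC2A5, SLC3A2, SLC11A2 and EZR were among the genes whose ranges overlapped, and ABCC3 was higher.

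The remaining genes of the 15 largest lower differences belonged to no list. VNN1, pantetheinase, was at 1.74, 2.12 and 0.245 CPM against 24.9, 322 and 845 CPM, a difference of -7.37 (SD 0.99 and 1.41). DAO, an oxidase of D-amino acids, was at 0.745, 0.996 and 0.491 CPM against 65.1, 173 and 297 CPM, and C3orf85 at 0.248, 0 and 0 CPM against 19.2, 73.2 and 125 CPM. In each of these starch 4 was the lowest of the 18 and still well above the 3.

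Ion and water transport was low in part: of 16 genes 15 passed, 6 were lower (7 with TMM scaling) and 0 higher. SLC26A3, the chloride and bicarbonate exchanger, was at 2.11, 3.36 and 0.368 CPM against 61.1, 125 and 245 CPM, and SLC9A3, the apical sodium and proton exchanger, at 0.869, 0.871 and 0.368 CPM against 14.3, 82.3 and 131 CPM. AQP10, a water and glycerol channel, was at 0.124, 0.124 and 0 CPM against 0.503, 36.7 and 166 CPM, a wide range among the 18. CFTR, the chloride channel of crypt cells, overlapped at 176, 47.3 and 36.05 CPM against 25.7, 73.2 and 169 CPM. A list of 12 genes best known from the large intestine had 7 past the filter, of which 6 were lower and 0 higher. In it AQP8, a water channel, was at 0.869, 0.871 and 0 CPM against 2.89, 31.9 and 294 CPM, GUCA2B, the peptide uroguanylin, at 5.09, 4.73 and 4.66 CPM against 45.7, 104 and 278 CPM, and BEST4, an anion channel of a rare enterocyte type, at 1.61, 1.62 and 2.33 CPM against 13.7, 20.8 and 33.04 CPM.

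Most factors that set the enterocyte programme were lower. Of 18 transcription factors 16 passed, 10 were lower and 0 higher, with a median of -1.53. CREB3L3, a regulator of apolipoprotein genes, was at 8.81, 7.84 and 3.68 CPM against 140.1, 264 and 617.8 CPM, a difference of -5.27 (SD 0.63 and 0.63). HNF4G, a nuclear receptor of the villus, was at 37.1, 12.1 and 20.2 CPM against 72.3, 172 and 327 CPM and its relative HNF4A, shared by crypt and villus, at 66.2, 46.2 and 66.6 CPM against 68.7, 126 and 158 CPM. CDX2, the factor of intestinal identity, was at 35.1, 53.9 and 62.9 CPM against 75.1, 104 and 131 CPM, a difference of -1.04 (SD 0.43 and 0.21). GATA5 was at 5.71, 7.72 and 7.73 CPM against 38.1, 57.3 and 90.04 CPM. GATA4, a factor of the upper small intestine, and KLF5, a factor of dividing crypt cells, overlapped, at 4.72, 4.61 and 4.91 CPM against 4.07, 8.74 and 16.3 CPM and at 289, 161 and 159.8 CPM against 122, 185 and 250.4 CPM.

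Genes of fatty acid oxidation were lower in part, and those of other energy paths mostly overlapped. For fatty acid oxidation and ketone synthesis 15 of 16 passed, 5 were lower (7 with TMM scaling) and 0 higher, among them ACADL, a long-chain dehydrogenase, at 29.5, 23.6 and 28.2 CPM against 43.6, 84.2 and 135 CPM, and HADHA, of the trifunctional protein, at 224, 231 and 242 CPM against 289, 357 and 578 CPM. EHHADH, of the peroxisomal path, overlapped narrowly, at 22.7, 11.3 and 13.6 CPM against 22.6, 89.7 and 163 CPM, and CPT1A, which admits fatty acids to mitochondria, read 79.8, 44.9 and 61.7 CPM against 12.8, 31.03 and 71.3 CPM. Of 17 nuclear genes of oxidative phosphorylation past the filter 1 was lower (0 with TMM scaling), beside 5.88% of all genes: SDHA of succinate dehydrogenase, at 191, 216 and 229 CPM against 249, 316 and 378 CPM. The 13 mitochondrially encoded messages all overlapped (1 was lower without control 8), with COX1 at 42971, 41289 and 39330 CPM against 40036, 49541 and 62908 CPM and CYTB at 7241, 9010 and 7916 CPM against 6884, 11375 and 18939 CPM. In glycolysis and the hypoxia response 12 genes passed and 2 were higher, beside 9.39% of all genes (1 with TMM scaling, 4 without control 8 and 4 without starch 4). Among the 2 was HK2, a hexokinase, at 77.7, 24.1 and 34.5 CPM against 1.19, 3.28 and 14.2 CPM. None of 20 cholesterol synthesis genes and none of 12 ribosomal protein genes past the filter lay outside the others, though 2 cholesterol genes were higher without control 5 and 2 without starch 4. The share beside these counts, and beside the mitochondrial one, is the 15.3% of all genes with no overlap.

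**Figure D5:**
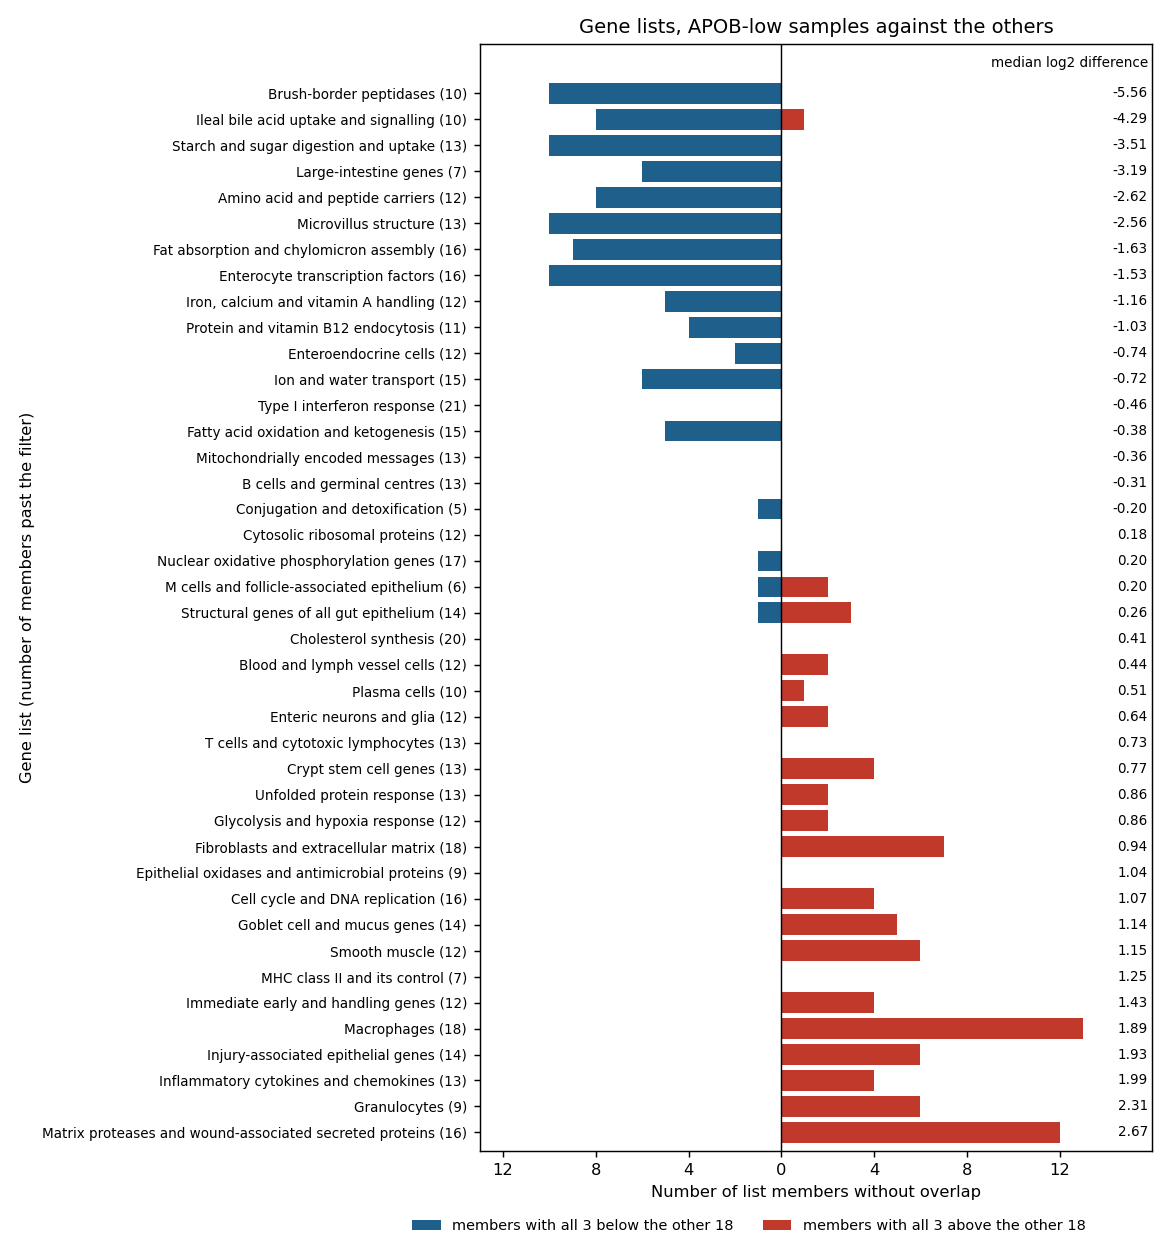
Number of members lower (blue, left) and higher (red, right) in the 3 APOB-low samples for each gene list with at least 5 members past the filter, the number past the filter in brackets and the median log2 difference at the right. Lists of digestion and absorption fill the upper rows, with 10 of 10 peptidases lower, and lists of macrophages and matrix proteases the lower ones, with 13 of 18 and 12 of 16 members higher.

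Genes shared by all gut epithelium did not follow the enterocyte genes. Of 16 structural epithelial genes 14 passed, 1 was lower and 3 were higher, beside 5.88% and 9.39% of all genes. The median was 0.26 (0.11 with TMM scaling, 0.15 within the starch samples). Their summed level was 7304 to 8701 CPM in the 3 and 4553 to 9270 CPM in the others, whose median was 5603 CPM. KRT8, at 2501 to 3885 CPM in the 3, was a large part of that sum. EPCAM, the adhesion molecule of epithelium, was at 450.0, 676 and 509 CPM against 491, 665 and 1102 CPM, a difference of -0.31 (SD 0.30 and 0.30) with overlapping ranges. CDH1, E-cadherin, read 1040, 596 and 588 CPM against 319.5, 479 and 709 CPM, CDH17, the intestinal cadherin, 699, 625.3 and 449 CPM against 449.9, 928 and 1136 CPM, and LGALS4, a gut galectin, 296, 456 and 347 CPM against 147, 351 and 655 CPM. KRT8, a keratin of simple epithelium, overlapped on the upper side, at 2501, 3885 and 3198 CPM against 1156, 1703 and 2822 CPM. Its partner KRT18 did not: it was at 594 CPM in control 5, 869.7 in control 8 and 562 in starch 3, against 15.7, 25.5 and 75.99 CPM, a difference of 4.50 (SD 0.34 and 0.59). VILL, a villin relative, was higher at 32.9, 34.2 and 27.2 CPM against 6.55, 9.18 and 18.5 CPM, and OCLN, the tight junction protein occludin, lower at 57.6, 41.6 and 38.6 CPM against 63.2, 79.6 and 103 CPM.

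Goblet cell genes were higher where they differed. Of 17 listed 14 passed, 5 were higher and 0 lower, beside 9.39% of all genes higher and 5.88% lower. The median was 1.14 (0.58 within the starch samples), and all 14 differences were above 0. MUC2, the gel-forming mucin, was at 971, 1134 and 523 CPM against 133, 227 and 396 CPM, a difference of 1.82 (SD 0.59 and 0.50). AGR2, the disulfide isomerase that folds mucin, was at 882, 1299 and 670.2 CPM against 21.7, 47.4 and 229.8 CPM, a difference of 4.02 (SD 0.48 and 0.82). SPDEF, a factor of goblet maturation, was at 31.5, 40.4 and 26.98 CPM against 5.81, 10.2 and 20.3 CPM, and GALNT12, which starts mucin glycosylation, at 54.9, 53.1 and 48.3 CPM against 6.95, 14.8 and 33.3 CPM. CLCA1 and TFF3, secreted with mucus, overlapped, at 766, 939 and 433 CPM against 147, 346 and 886 CPM and at 102, 166 and 57.4 CPM against 39.1, 60.98 and 164 CPM. ATOH1, the factor of secretory fate, read 4.97, 6.85 and 5.03 CPM against 1.59, 3.59 and 5.36 CPM. In REG4, MUC2, CLCA1, TFF3 and AGR2 control 8 was the highest and starch 3 the lowest of the 3.

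Some crypt and dividing-cell genes were higher and most overlapped. Of 15 stem cell genes 13 passed, 4 were higher and 0 lower, beside 9.39% of all genes higher and 5.88% lower. The median was 0.77 (0.32 within the starch samples), and 11 of 13 differences were above 0. EPHB2, a receptor that positions crypt cells, was at 261, 165 and 145 CPM against 15.1, 37.1 and 64.4 CPM, EPHB3, its relative, at 39.7, 33.5 and 30.2 CPM against 5.05, 10.4 and 22.6 CPM, and SOX9, a crypt factor, at 37.5, 19.8 and 17.5 CPM against 4.24, 7.91 and 14.1 CPM. LGR5 and OLFM4, the best known stem cell markers, overlapped, at 15.8, 12.7 and 7.97 CPM against 2.07, 6.57 and 18.4 CPM and at 2782, 2767 and 1748 CPM against 637, 1521 and 4084 CPM. AXIN2, a target of Wnt signalling, was on the low side, at 27.6, 17.8 and 16.4 CPM against 16.97, 40.7 and 67.3 CPM. In the cell cycle list 16 of 21 passed and 4 were higher (7 without control 5), beside 9.39% of all genes. With TMM scaling 1 was higher, near the 5.3% of all genes under that scaling. CCNB1, the mitotic cyclin B1, was at 107, 113 and 118 CPM against 14.7, 37.7 and 89.6 CPM, PLK1, a mitotic kinase, at 103, 126 and 130.1 CPM against 18.6, 49.2 and 101 CPM, and TOP2A, the topoisomerase of dividing cells, overlapped at 623, 394 and 387 CPM against 122, 241 and 522 CPM. Of the 17 enteroendocrine genes 12 passed, 2 were lower (3 with TMM scaling, 4 without control 5), beside 5.88% of all genes, and 0 higher. Those 2 were the hormones NTS, neurotensin, at 13.7, 16.6 and 17.9 CPM against 34.96, 99.6 and 202 CPM, and the incretin GIP, at 4.97, 5.10 and 8.34 CPM against 8.72, 38.4 and 64.02 CPM. CHGA, the granule protein of all endocrine cells, and GCG, the glucagon precursor, overlapped, at 103, 171 and 107 CPM against 92.2, 158 and 442 CPM and at 63.4, 82.8 and 57.4 CPM against 59.8, 114 and 313 CPM.

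Macrophage genes formed the list with the most higher members under scaling by the total. Of 19 listed 18 passed, 13 were higher and 0 lower, with a median of 1.89, and with TMM scaling 6 were higher with a median of 1.74. Their summed level was 2645 to 3962 CPM in the 3 and 439 to 1443 CPM in the others, and no defining marker was at 0 in either set. F13A1, the coagulation factor XIII chain of tissue macrophages, was at 74.6, 47.2 and 61.2 CPM against 0.446, 2.58 and 12.6 CPM, a difference of 4.34 (SD 0.33 and 1.07). CD14, the lipopolysaccharide co-receptor, was at 63.3, 62.4 and 94.3 CPM against 1.25, 4.36 and 16.9 CPM, and MARCO, a scavenger receptor, at 17.8, 56.1 and 19.9 CPM against 0.125, 1.5 and 9.96 CPM. Genes of macrophages in general had smaller differences: C1QA, of complement, was at 342, 265 and 471 CPM against 59.2, 105 and 248 CPM, and CD68, a lysosomal protein, at 185, 163 and 234 CPM against 23.1, 58.8 and 154 CPM. CSF1R, the receptor for their growth factor, overlapped at 298, 154 and 289 CPM against 45.8, 68.6 and 176 CPM, and so did LYVE1, a marker of perivascular macrophages, at 18.99, 13.2 and 28.6 CPM against 9.38, 13.9 and 21.3 CPM. MS4A7, a membrane protein of monocyte-derived cells, ACOD1, which makes itaconate in activated macrophages, and GPR84, a receptor for medium-chain fatty acids, were among the 15 largest higher differences. MS4A7 was at 34.6, 26.8 and 46.97 CPM against 0, 0.769 and 10.6 CPM, ACOD1 at 40.3, 34.2 and 110.0 CPM against 0, 1.14 and 16.2 CPM, and GPR84 at 43.1, 86.1 and 590.3 CPM against 0.149, 0.887 and 4.41 CPM, with starch 3 far above both controls in GPR84.

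Matrix proteases and proteins secreted in wounds were the list with the largest median, 2.67. Of 18 listed 16 passed, 12 were higher (12 with TMM scaling too) and 0 lower. Their summed level was 6518 to 6711 CPM in the 3 and 653 to 2163 CPM in the others. MMP1, interstitial collagenase, was at 2350, 2682 and 2218 CPM against 210.3, 272 and 756 CPM, a difference of 3.04 (SD 0.14 and 0.46). MMP13, another collagenase, was at 114, 45.4 and 17.2 CPM against 0, 0.602 and 5.19 CPM, a difference of 5.01 (SD 1.35 and 1.21), and MMP7, matrilysin, at 14.03, 8.59 and 2.45 CPM against 0, 0 and 1.93 CPM. TIMP1, which inhibits these proteases, was at 565 CPM in control 5, 895 in control 8 and 1313 in starch 3, against 20.98, 37.1 and 230.3 CPM, a difference of 4.35 (SD 0.61 and 0.82). CHI3L1, a chitinase-like protein of inflamed tissue, was at 104, 115 and 377 CPM against 0.657, 1.65 and 31.4 CPM, and PLAUR, the urokinase receptor, at 80.9, 67.95 and 103 CPM against 2.44, 4.43 and 13.3 CPM. MMP9, gelatinase B, and SPP1, osteopontin, overlapped: MMP9 read 11.2, 9.46 and 10.3 CPM against 0.53, 3.59 and 29.7 CPM and SPP1 1502, 1126 and 780.0 CPM against 29.2, 114 and 1365 CPM.

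Granulocyte genes had the single largest higher difference of all named genes. S100A12, a calcium-binding alarmin of neutrophils, was at 93.1 CPM in control 5, 397 in control 8 and 223 in starch 3, against 0, 0.134 and 2.21 CPM, a difference of 7.88 (SD 1.05 and 0.87). S100A8, a subunit of calprotectin, was at 16.01, 72.2 and 41.2 CPM against 0, 0 and 1.24 CPM, and CSF3R, the receptor for granulocyte growth factor, at 65.9, 91.6 and 163 CPM against 1.12, 5.04 and 33.2 CPM. MMP8, the neutrophil collagenase, had 0 counts in all 18 others, which allows up to 3 counts or 0.446 CPM in the shallowest of them, and was at 2.23, 5.10 and 32.3 CPM, at least 5.0-fold higher in the lowest of the 3. Of 16 genes listed 9 passed, 6 were higher (6 with TMM scaling) and 0 lower, beside 9.39% of all genes higher. S100A12, S100A8 and MMP8 averaged 0.544, 0.157 and 0 CPM over the 18, so they passed the filter only through the 3. The summed level of the 9 was 893 to 978 CPM against 120 to 768 CPM. LYZ, lysozyme, which Paneth-like and myeloid cells also make, overlapped at 609, 267 and 248 CPM against 89.5, 262 and 739.7 CPM, and is part of that sum.

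Signals and epithelial injury genes were higher in part. Of 23 cytokines and chemokines 13 passed, 4 were higher (5 with TMM scaling) and 0 lower. IL1A, interleukin-1 alpha, was at 9.31, 4.48 and 29.3 CPM against 0, 0.516 and 1.39 CPM, CXCL2, a chemokine that draws in neutrophils, at 20.98, 15.4 and 99.9 CPM against 0.634, 1.19 and 8.61 CPM, CSF3, the granulocyte growth factor, at 5.96, 4.23 and 8.34 CPM against 0, 0.505 and 1.05 CPM, and CCL2, one for monocytes, at 36.99, 37.7 and 76.2 CPM against 3.18, 8.47 and 22.2 CPM. CXCL8, interleukin-8, touched the range of the others, at 32.6, 16.6 and 63.8 CPM against 1.42, 4.47 and 16.6 CPM. In IL1A, CXCL2, CSF3, CCL2 and CXCL8 starch 3 was the highest of the 3. Of 22 genes of injured epithelium 14 passed, 6 were higher (5 with TMM scaling) and 0 lower. ANXA1, annexin A1, was at 368, 359 and 282 CPM against 25.8, 39.6 and 87.4 CPM, and CCN1, a target of YAP, at 28.3, 25.4 and 56.9 CPM against 2.78, 5.19 and 12.1 CPM. CLU, clusterin, overlapped, at 631, 583 and 502 CPM against 53.4, 112 and 684 CPM.

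Antimicrobial and oxidase genes had 0 of 9 members outside the others in either direction (15 listed), beside 5.88% of all genes lower and 9.39% higher. Without starch 3 and without starch 4, 2 were higher in each case, and without control 5, 1 was. DUOX2, the hydrogen peroxide source of the epithelium, and its partner DUOXA2 were on the high side, at 139.6, 66.5 and 19.4 CPM against 0.808, 5.31 and 25.4 CPM and at 32.5, 22.03 and 7.97 CPM against 0.247, 1.33 and 8.17 CPM, with starch 3 the lowest of the 3. NOS2, the inducible nitric oxide synthase, overlapped at 13.1, 7.38 and 46.7 CPM against 7.11, 29.7 and 246 CPM. Both controls lay below the median of the others and starch 3 above it. LCN2, lipocalin 2, read 3.23, 9.83 and 11.5 CPM against 0.127, 1.29 and 7.92 CPM, and PIGR, which carries antibody into the lumen, 168, 191 and 90.7 CPM against 31.7, 169 and 386 CPM.

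The other genes of the 15 largest higher differences follow, and RNA of whole tissue does not show which cells made them. ARG1, arginase, was at 85.8, 116 and 125 CPM against 0, 0.403 and 2.82 CPM, a difference of 6.67 (SD 0.28 and 0.78), and SERPINB2, a plasminogen activator inhibitor, at 61.1, 18.5 and 38.6 CPM against 0, 0 and 0.276 CPM. TGM3, a transglutaminase of keratinising epithelium, was at 239, 535 and 1094 CPM against 1.90, 9.11 and 31.1 CPM, and SDS, serine dehydratase, at 11.7, 45.8 and 118 CPM against 0, 0.204 and 5.90 CPM. GPRC5A, an orphan receptor of epithelium, was at 160.3, 177 and 111 CPM against 0.398, 2.51 and 27.1 CPM, and FGFBP1, a carrier of fibroblast growth factors, at 42.5, 63.5 and 22.1 CPM against 0, 0.969 and 10.4 CPM. In SDS, GPRC5A and FGFBP1 starch 4 was the highest of the 18, as it was for 7 of the 15.

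Lymphocyte genes mostly overlapped between the samples, beside 15.3% of all genes with no overlap. T cell and MHC class II genes nonetheless stood on the high side. All 13 T cell differences were above 0, with a median of 0.73 (0.59 with TMM scaling, 0.22 within control and 1.51 within starch samples). All 7 MHC class II differences were above 0 as well, with a median of 1.25 (1.09, 0.94 and 1.76 in the same order). Of 13 T cell genes past the filter (18 listed) 0 were outside the others (2 higher without control 8, 1 without control 5), and their summed level was 239 to 627 CPM in the 3 and 77.4 to 585 CPM in the 18, with CD3E, of the T cell receptor complex, at 18.4, 31.9 and 60.7 CPM against 7.03, 26.7 and 69.8 CPM, and CD4 at 15.5, 7.72 and 19.9 CPM against 1.74, 4.71 and 16.03 CPM. Of 13 B cell genes past the filter (15 listed) 0 were outside the others, with summed levels of 76.3 to 112 CPM and 25.4 to 1011 CPM. MS4A1, the B cell marker CD20, was at 0, 0 and 0.245 CPM and at 0 in the lowest of the 18, whose median was 0.14 and highest 60.8 CPM, and CD79A, of the B cell receptor, read 1.37, 6.22 and 3.43 CPM against 0.236, 2.32 and 87.1 CPM. Of 10 plasma cell genes past the filter 1 was higher (0 with TMM scaling), beside 9.39% of all genes, and JCHAIN, which joins secreted antibody, overlapped at 94.7, 259 and 124 CPM against 34.1, 101 and 258 CPM. MHC class II genes (0 of 7, and 1 higher without control 8), with CD74, the invariant chain, at 1407, 1034 and 2423 CPM against 273, 577 and 1481 CPM, and interferon response genes (0 of 21, and 1 lower with TMM scaling or 2 without starch 3) overlapped too. RSAD2 and OASL, both interferon-induced, read 4.72, 2.12 and 5.15 CPM against 3.13, 16.2 and 320.2 CPM and 1.12, 1.62 and 3.31 CPM against 0.657, 6.58 and 236 CPM. A marker of the follicle-associated epithelium, SPIB, was lower, at 1.74, 0.747 and 1.84 CPM against 5.00, 9.41 and 41.1 CPM, while ANXA5, of the same list of 6 genes past the filter, was higher, at 262, 250.0 and 224 CPM against 37.4, 53.6 and 128 CPM.

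Some genes of the deeper wall were higher in the same 3 samples, most overlapped, and the smooth muscle count depended on the scaling. Of 13 smooth muscle genes 12 passed, 6 were higher and 0 lower with scaling by the total, and 0 were higher with TMM scaling. All 12 differences were above 0, with a median of 1.15 (0.99 with TMM scaling). Their summed level was 29072 to 42221 CPM in the 3 and 8589 to 23173 CPM in the others, and no defining marker was at 0. ACTG2, the actin of visceral muscle, was at 12552 CPM in control 5, 20749 in control 8 and 12658 in starch 3, against 2214, 3890 and 10263 CPM, a difference of 1.80 (SD 0.42 and 0.59). DES, desmin, was at 2481, 3996 and 2566 CPM against 566, 894 and 1831 CPM, TAGLN, transgelin, at 1764, 2746 and 1949 CPM against 436, 639 and 1673 CPM, and MYH11, the myosin heavy chain, overlapped at 6570, 5714 and 5297 CPM against 2546, 3521 and 5421 CPM. In ACTG2, DES and TAGLN starch 4 was the highest of the 18. Of 20 fibroblast and matrix genes 18 passed, 7 were higher (4 with TMM scaling, 13 without control 8) and 0 lower, with a summed level of 15821 to 18875 CPM against 6590 to 16899 CPM. COL6A3 was at 1071, 720.4 and 907 CPM against 185, 307 and 571 CPM, and COL4A2, of basement membrane, at 1186, 1019 and 1116 CPM against 324, 415 and 712 CPM. The main fibrillar collagens COL1A1 and COL3A1 overlapped, at 3458, 3254 and 3752 CPM against 1037, 1937 and 3856 CPM and at 3604, 3208 and 3701 CPM against 1939, 2739 and 4954 CPM. Endothelial genes had 2 of 12 members higher, beside 9.39% of all genes, and 3 with TMM scaling, beside 5.3%. Without control 5 there were 4, beside 1724 of 13642 genes. The 2 were ENG, endoglin, at 141, 153 and 182 CPM against 44.4, 59.9 and 78.7 CPM and PECAM1, the junction protein CD31, at 273, 192 and 246 CPM against 78.3, 105 and 164 CPM. Genes of enteric neurons and glia had 2 of 12 higher (2 with TMM scaling), beside the same shares of 9.39% and 5.3%. The 2 were ELAVL4, a neuronal RNA-binding protein, at 22.1, 18.5 and 20.4 CPM against 6.83, 9.56 and 16.2 CPM and GFAP, the glial filament, at 3.72, 3.98 and 2.82 CPM against 0, 0.912 and 2.26 CPM. Of 13 genes listed for pancreas and stomach 7 matched a gene of the files by symbol, and 0 of these passed the filter. How far the share of muscle, matrix and immune cells in each tissue piece bears on the counts above was not tested.

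Stress genes were mixed. In the unfolded protein response 13 of 16 passed and 2 were higher (0 with TMM scaling, 4 without control 5), beside 9.39% of all genes. Among the 2 was ASNS, asparagine synthetase, at 212, 243 and 118 CPM against 11.7, 23.2 and 106 CPM. HSPA5, the chaperone BiP, overlapped at 1235, 1916 and 1338 CPM against 490.5, 701 and 1653 CPM. Of 16 immediate early genes, which also respond to handling of tissue, 12 passed and 4 were higher (3 with TMM scaling). FOS was at 77.1, 89.4 and 105 CPM against 4.21, 9.10 and 49.4 CPM and EGR1 at 74.6, 55.5 and 133 CPM against 8.02, 20.01 and 55.03 CPM, and the part of handling in these samples was not tested.

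The 3 samples were not copies of one another. Among the 802 lower genes control 5 was the lowest of the 3 in 37.5%, control 8 in 32.7% and starch 3 in 29.8%, and among the 1281 higher genes they were the highest in 31.6%, 31.5% and 36.8%. Ties, such as genes at 0 in more than 1 sample, were credited to the first in that order. Alike samples would also share these places about evenly, so these shares do not measure how the 3 differed. Each sample also had genes in which it stood far above the next of all 21. Control 5 did so for TFRC, the transferrin receptor, at 515 CPM, 3.71-fold above the next, where control 8 and starch 3 lay inside the others at 74.9 and 96.3 CPM. It did so too for CELSR1 (52.1 CPM), a planar polarity cadherin, DCBLD1 (132 CPM), EPN3 (26.9 CPM), an endocytic adaptor, GREM1 (140.0 CPM), a BMP antagonist, and SPRED1 (24.8 CPM), an inhibitor of Ras signalling, each 2.97- to 3.25-fold above the next. Control 8 was 2.83-fold above the next in MARCO, and 1.95- to 2.27-fold in ACTA1 (15.1 CPM), skeletal actin, KRT7 (16.7 CPM), a ductal keratin, PHEROC (21.8 CPM), TCN1 (198 CPM), a vitamin B12 binder, and IL17B (19.4 CPM), a cytokine. Starch 3 had the widest such gaps. CRISP3, a secreted protein of neutrophil granules, was at 26.2 CPM in it, 30.1-fold above control 8, and at most 0.123 CPM in the 18. Control 8 was at 0.871 CPM, near the 0.446 CPM that 3 counts equal in the shallowest library, so that ratio is uncertain. GPR84, PLEK, MMP8, IDO1 and CXCL2 were 4.76- to 6.85-fold above the next sample in starch 3, with PLEK, a platelet and leukocyte kinase substrate, at 112 CPM and IDO1, which breaks down tryptophan, at 159 CPM.

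Starch 4 was the nearest of the 18 in many of these genes. It was the lowest of the others in 32.9% of the 802 lower genes and the highest in 21% of the 1281 higher genes. Starch 11 was next, at 24.9% and 14.9%, followed by starch 10 at 11.2% and 15.2%. Without starch 4, 924 genes were lower and 1390 higher. Its CD163 level, 222 CPM, lay between the median of the others, 32.6 CPM, and the lowest of the 3, 789.7 CPM.

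The diet comparison was run on all samples, which uses no gene to choose them, and on the 18 that are left when the 3 APOB-low ones are taken out. With all 21 samples 0 of 13127 genes (0.0%) differed between starch and control in edgeR's quasi-likelihood test at a Benjamini-Hochberg adjusted p threshold of 0.05, and 174 had an unadjusted p below 0.05. With the 18 others alone 0 of 13139 genes (0.0%) were called and 382 had an unadjusted p below 0.05. With 21 samples DESeq2 and limma-voom also called 0 genes, with 293 and 118 at an unadjusted p below 0.05. The fits share 18 samples, and the 21-sample fit holds 2 APOB-low control piglets and 1 APOB-low starch piglet.

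For named genes the estimates of both fits are given side by side as a description. Most of them lie far from the rest in the 3 samples that the second fit leaves out and were named partly for that, so a move of the estimate between the fits follows from that choice. None of them passed the adjusted threshold in either fit. REG4 had a log2 fold change, starch minus control, of -1.66 (SE 0.72) with 21 samples and -0.07 (SE 0.29) with 18, and MUC2 -0.75 (SE 0.33) and -0.33 (SE 0.24). The estimate for MMP12 was -1.57 (SE 1.25) and 1.40 (SE 0.77), that for AGR2 -1.04 (SE 0.75) and 0.20 (SE 0.41), and that for DUOX2 -1.16 (SE 0.70) and 0.88 (SE 0.46). FABP2 was at -1.09 (SE 0.74) and -1.26 (SE 0.39, unadjusted p = 0.00449 and adjusted p = 0.9999 with edgeR), and MTTP at -0.04 (SE 0.73) and -0.22 (SE 0.30).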

How the data were processed

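Total RNA from distal small intestine of 21 piglets was extracted with miRNAeasy kits and sequenced, per the labels' protocols. The deposited data were 1 transcript table for each animal. Per the file headers, a transcript comes with its length, its expected count (the authors' estimate, not normalised) and its FPKM, which the authors had scaled to length and depth. HISAT and DESeq2 are named in the submitters' processing notes with neither role nor version. The genome build, the annotation release and the counter were not given in the sources used here. Strand is not stated, so antisense and overlapping genes cannot be told apart, and copies of near-identical sequence are uncertain.

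Expected counts were summed per Ensembl gene (18661 genes, of which 14276, 76.5%, matched a symbol in a table of pig gene names) and scaled to 1000000 counts per file (CPM). Totals of 6719264 to 8610458 set a counting error that is small beside the spread between animals except in genes near the filter. No interval or test is given for the 3 samples against the 18, since APOB chose them. The filter was a mean of 1 CPM, the pseudocount 0.5 CPM. Means for the filter and for naming genes were over all 21 samples, so genes such as S100A8, SERPINB2 and CRISP3 passed only through the 3. Samples were grouped for diet by the labels, and diet was tested by quasi-likelihood in edgeR 4.0.16 (R 4.3.3) on rounded counts, with TMM scaling and the filterByExpr filter, with DESeq2 1.42.0 and limma-voom (limma 3.58.1) as alternatives, and was tested on simulated data. Other work used Python 3.11.15 with pandas 2.3.3, numpy 2.4.6, scipy 1.17.1 and matplotlib 3.10.9.

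Named genes are the 6 markers, the 15 genes per direction with the largest log2 difference among those with a symbol, a mean of at least 5 CPM and no overlap, up to 5 members per list with the largest difference and up to 3 well-known ones, and 6 genes per APOB-low sample in which it stood highest above the next. The 6 markers, the members and the 44 lists were chosen with earlier results of these data known. Alternatives were TMM, upper-quartile and RLE scaling, totals without mitochondrial genes, FPKM, transcripts, other filters and pseudocounts, medians, each diet alone, and leaving out each APOB-low sample. Leaving out starch 4 was added after seeing the data. No sequence or coordinate is given, and some genes are not reported here.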

Additional observations from a re-analysis of the deposited data

Results flagged for a closer look

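Among the named genes, 42 values in the control group (n = 10) stood apart from the other controls by Dixon's criterion, in which the gap to the nearest sample is set against the group's whole range. The starch group, with 11 samples, was not tested in this way. Chance alone marks about 1 in 20 genes where values follow a normal distribution. Here the criterion was applied to CPM of the 184 genes without a log, and all 42 values were the highest of the controls. The share that chance marks in such values was not tested. Most of the 42 belong to the APOB-low controls, which the genes were partly named for, so they repeat the descriptions above.

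Control 5 was the highest control in 17 of them. In epithelial, crypt and carrier genes these were APOBEC1 at 37.4, SLC2A5 at 84.4, CDH1 at 1039.7, SOX9 at 37.5, DUOX2 at 139.6, TFRC at 515 and HK2 at 77.7 CPM. In macrophage and inflammation genes they were CSF1R at 298, MMP13 at 114, IL1A at 9.31, CXCL8 at 32.6 and SERPINB2 at 61.1 CPM. In genes named because control 5 was far above all other samples they were CELSR1 at 52.1, DCBLD1 at 132, EPN3 at 26.9, GREM1 at 140.0 and SPRED1 at 24.8 CPM.

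Control 8 was the highest control in 15. In epithelial and mucus genes these were KRT8 at 3885, TFF3 at 166, LCN2 at 9.83, TGM3 at 535 and KRT7 at 16.7 CPM. In myeloid genes they were MARCO at 56.1, S100A12 at 397, S100A8 at 72.2, MMP8 at 5.10 and GPR84 at 86.1 CPM. The rest were SDS at 45.8, ACTA1 at 15.1, PHEROC at 21.8, TCN1 at 198 and IL17B at 19.4 CPM.

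The remaining 10 values lay in controls that were not APOB-low. Control 2 had FABP2 at 3918, G6PC1 at 155 and AQP8 at 294 CPM. Control 9 had SLC10A2 at 29.0 and RSAD2 at 94.3 CPM, and control 1 the B cell genes CD79A at 14.7 and MS4A1 at 10.6 CPM. APOA4 was at 4060.5 CPM in control 6, MMP9 at 29.7 CPM in control 3 and CHGA at 326 CPM in control 4.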

How the results depend on the processing

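The count of genes higher in the APOB-low samples, 1281, came to 723 with TMM and 722 with RLE scaling. Within the control samples alone (2 against 8) 1627 genes were lower and 2442 higher, and within the starch samples alone (1 against 10) 1770 and 3205, where fewer samples make an overlap less likely by construction. Leaving out each APOB-low sample in turn gave 911 to 1185 lower and 1519 to 1737 higher genes. Under the remaining scalings, filters, FPKM and transcripts both counts stayed within 1.5 times the main ones. The median log2 difference over all genes ran from 0.0048 (RLE) to 0.226 (without control 8). Of the 184 named genes 122 had no overlap, and 0 of them changed sign in 14 alternatives. Of 41 list medians, that of B cells turned from -0.31 to 0.16 when medians replaced means, the one change of sign, and 15 moved within the starch samples. Counts of list members that moved by over 1.5 times when 1 sample was left out stand beside those counts in the text; besides these, lists of fat and of sugar absorption, endocytosis, ion transport, oxidative phosphorylation and enteroendocrine cells, each with 0 higher, gained 1 when 1 of the samples control 5, control 8, starch 3 and starch 4 was left out.

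The diet test called 0 genes under every alternative run. With the replicate number as a block it called 0 of 13106 genes, with 188 at an unadjusted p below 0.05. Same-numbered piglets had deviations from their diet means that correlated at r of -0.337 to 0.485 over 10 pairs. No differently numbered pairs were set beside these, so the values do not settle whether the numbers pair the animals. DESeq2's smallest adjusted p was 0.211.

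Depth limits genes near 1 CPM, where 3 counts in the shallowest library equal 0.446 CPM. With 3 samples, 1 of them on starch, diet and animal cannot be told apart within the set. No histology or exact position along the gut was used here.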
